A study of Drosophila melanogaster with 20 samples.

Results

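The Cpr genes of Drosophila melanogaster encode cuticular proteins, and their transcripts were followed here in eye imaginal discs that expressed human proinsulin. The members were all genes whose symbol in the array annotation starts with Cpr and a digit, which gave 66 genes among the 11983 genes that had a probe set of their own. A gene with several probe sets was read from the one with the highest mean over all arrays. The study measured 20 Affymetrix arrays in 5 groups of flies, with 2 male and 2 female arrays in each group. WT-6 and WT-24 are insertion lines of UAS-hINSWT, the wild-type human proinsulin. Mut-101 and Mut-1 are insertion lines of UAS-hINSC96Y, which carries the C96Y mutation that removes a cysteine needed for proinsulin folding. Both transgenes were driven by GMR-GAL4 and were present in 1 copy. The fly without a proinsulin transgene carried GMR-GAL4 according to its labels and is called non-transgenic below. The discs came from 3rd instar larvae at the wandering stage.

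GMR-GAL4 is active in cells that the morphogenetic furrow has passed, so that only part of each dissected disc makes proinsulin. Each line is a single insertion, and whether arrays of one group came from separate pools of discs is not stated beyond the label of biological replicate. The level of the transgene was not analysed here.

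Insect cuticle is a layered matrix of chitin fibres and proteins that epidermal cells secrete at their apical surface. Cpr proteins carry the Rebers and Riddiford consensus, an extended chitin-binding stretch, and the members differ in the body region and developmental stage at which they are laid down. Imaginal discs are epithelia that make pupal and adult cuticle only after the larva pupariates, under the control of ecdysone pulses, and the eye disc epithelium later also secretes the corneal lenses. Cpr66D and Cpr72Ec are known as proteins of the adult fly's corneal lens. The roles of most single Cpr genes are less well known, so the genes are ordered below by what was measured.

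The deposited values are MAS5 intensities on a linear scale. Array means lay between 1194 and 1249.8 and array medians between 213 and 286. Arrays of the same line and sex correlated at 0.978 to 0.993 over all probe sets. All 10 eye disc markers were well expressed, and their summed intensity was 48947 to 50029 in the non-transgenic arrays, 46717 to 53240.2 in the wild-type proinsulin arrays and 45034 to 49646 in the C96Y arrays. Some arrays also held transcripts of neighbouring tissues. The summed fat body markers reached 34039.6 in non-transgenic male 2 and 22433 in WT-24 female 1, against at most 7871 in the other arrays. The ring gland gene sad was above 1000 in non-transgenic male 1, WT-6 female 1, WT-24 male 2 and WT-24 female 2, and at most 847 elsewhere. The C96Y arrays varied in other markers. The summed salivary gland markers ran from 4047 in Mut-101 female 1 to 32138 in Mut-1 male 1. Antp was 1645 in Mut-101 male 2, the array with the highest median, and at most 403 elsewhere.

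Most Cpr genes were dim in these discs. The table has no detection calls, so a gene was taken as above background when its probe set was in the upper 60% of the 17105 probe sets by geometric mean, which was a limit of 158 intensity units. By this rule 26 of the 66 Cpr genes, or 39.4%, were above background, against 66.8% of all named genes. As a second reference, 165 odorant, gustatory and ionotropic receptor genes, families little used in larval eye discs, had a median of 60.1 and a 95th percentile of 197, and 19 Cpr genes were above that percentile. Among the receptor genes 14 were themselves in the upper 60%. Intensities of different probe sets also reflect probe affinity. The order of genes by level given below is therefore one of intensity only, and the tests compare samples and not genes.

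Only 3 members had a geometric mean over 1000 intensity units, namely Cpr51A at 5325, Cpr49Ac at 3987 and the corneal lens gene Cpr66D at 2193. Cpr97Ea followed at 783 and Cpr67B at 573, and these 5 were the only members in the upper 40%. Below them came Cpr65Ec at 478, Cpr35B at 359, Cpr12A at 346, Cpr78E at 331, Cpr92A at 309 and Cpr31A at 302. The next group held Cpr65Ea at 266, Cpr64Ac at 259, Cpr11A at 258, Cpr66Cb at 254, Cpr47Ec at 243, Cpr76Ba at 228, Cpr49Af at 221 and Cpr65Au at 207. The remaining members above the limit were Cpr76Bd at 182, Cpr47Eb at 175, Cpr11B at 174, Cpr30F at 173, Cpr49Ag at 162, Cpr5C at 159 and Cpr56F at 158. Cpr56F and Cpr5C stood just inside the limit, and Cpr76Bb at 157 and Cpr47Ef at 156 just outside it.

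**Figure D1:**
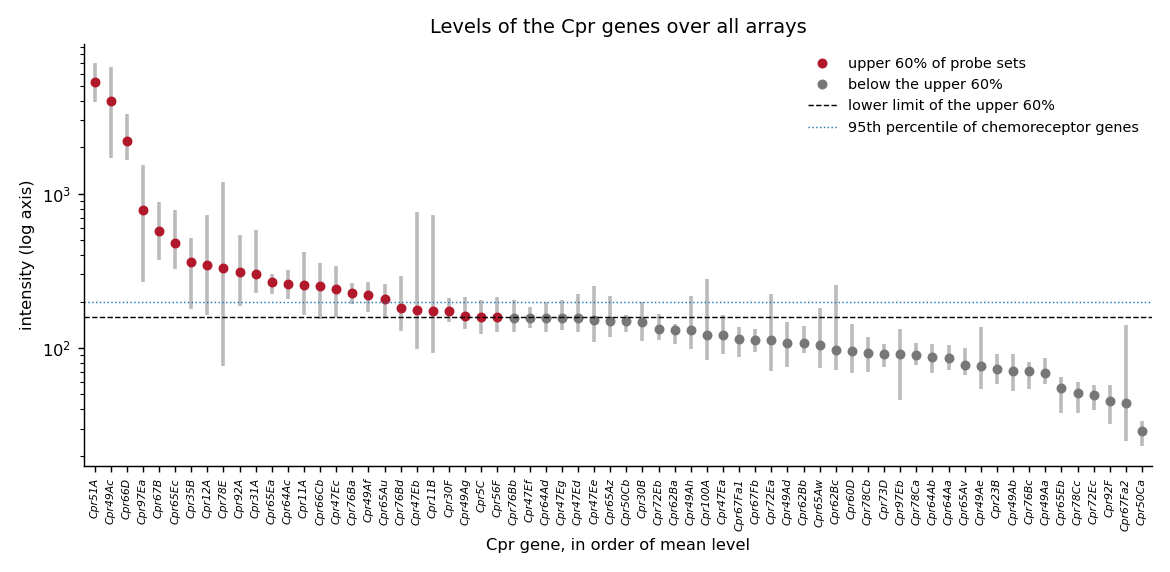
Geometric mean intensity of each of the 66 Cpr genes over the 20 arrays on a log axis, in order of level. The vertical lines span the lowest to the highest array, and the lines across mark the limit of the upper 60% of probe sets (158) and the 95th percentile of the chemoreceptor genes (197). 26 genes lie above the first line and 3 above 1000.

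The other 40 members had geometric means from 29.0 to 157 and single arrays from 23 to 280.01. From the multi-gene clusters they were Cpr47Ea, Cpr47Ed, Cpr47Ee, Cpr47Ef and Cpr47Eg, Cpr49Aa, Cpr49Ab, Cpr49Ad, Cpr49Ae and Cpr49Ah, Cpr50Ca and Cpr50Cb, Cpr62Ba, Cpr62Bb and Cpr62Bc, Cpr64Aa, Cpr64Ab and Cpr64Ad, Cpr65Av, Cpr65Aw and Cpr65Az, Cpr65Eb, Cpr67Fa1, Cpr67Fa2 and Cpr67Fb, Cpr72Ea, Cpr72Eb and Cpr72Ec, Cpr76Bb and Cpr76Bc, Cpr78Ca, Cpr78Cb and Cpr78Cc, and Cpr97Eb. Those with a symbol of their own position were Cpr23B, Cpr30B, Cpr60D, Cpr73D, Cpr92F and Cpr100A. The lens gene Cpr72Ec, with a geometric mean of 49.4, was among them.

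In the RefSeq gene table (Release 6 plus ISO1 MT), which lists 70 Cpr genes, 41 lie directly beside another Cpr gene. Of the 8 members at 49A, Cpr49Ac, Cpr49Af and Cpr49Ag were above the limit. At 47E, 2 of 7 members were above it, namely Cpr47Eb and Cpr47Ec. None of the 3 members each at 62B, 67F, 72E and 78C was. These counts share the limit's dependence on probe affinity. By chromosome arm, 4 of 4 members on X were above background, 3 of 5 on 2L, 7 of 20 on 2R, 10 of 32 on 3L and 2 of 5 on 3R. No share of all named genes by arm is set beside these counts, so they describe the members and not a difference between arms. The 4 listed genes without a probe set of their own were Cpr57A, Cpr65Ax1, Cpr65Ax2 and Cpr65Ay. A probe set shared by Obp57d and Cpr57A had a geometric mean of 324, which cannot be divided between those genes, and the one shared by Cpr65Ax1 and Cpr65Ax2 had 57.7.

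The comparison on which the design is built is that of discs with C96Y proinsulin against discs with wild-type proinsulin. Of the 26 Cpr genes tested, 6 differed between the C96Y lines and the wild-type proinsulin lines at an adjusted p under 0.05 in limma. Cpr97Ea, Cpr12A, Cpr51A and Cpr66Cb fell, and Cpr64Ac and Cpr92A rose. The 6 genes are 23.1% of those tested, beside 20.1% of all 10263 probe sets tested. In the lower direction the background was 8.58% and in the higher direction 11.5%. The median log2 difference was -0.06 over the 26 genes and -0.00 over all probe sets tested, with 11 genes above 0 and 15 below it. The share of members called was close to the background share, so what follows describes single genes. These p-values come from the spread between arrays of the same line and sex, and do not cover the spread between insertion lines, of which each transgene had 2.

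Cpr97Ea had the lowest adjusted p of the family. In the non-transgenic discs its intensity was 1220.4 and 1229.8 in the males and 1377 and 1545 in the females. In the wild-type proinsulin arrays it was lowest at 805, had a median of 1114 and was highest at 1192. In the C96Y arrays it was lowest at 266, had a median of 478 and was highest at 691. Every C96Y array was below every other array, and the closest were the 691 of Mut-1 female 1 and the 805 of WT-24 male 2. Among the 10263 probe sets tested, 0.370% were lower in all 8 C96Y arrays than in all 12 others. The log2 difference from the wild-type lines was -1.26 ± 0.121 (SE), a 2.40-fold lower intensity with an adjusted p of 1.37e-05 (limma, 95% interval of the log2 difference -1.52 to -1.0). By line, the mean was 1343 ± 153 (SD, n = 4) in the non-transgenic discs, 1128 ± 38.7 in WT-6, 1010.0 ± 180.3 in WT-24, 518 ± 51.0 in Mut-101 and 407 ± 192 in Mut-1. In this order, WT-24 did not differ from WT-6, nor Mut-1 from Mut-101, past the threshold.

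Cpr12A showed the next lowest adjusted p. It was 290.3 and 339.8 in the non-transgenic males and 724 and 436 in the females. The wild-type proinsulin arrays ran from 244 through a median of 488 to 686, and the C96Y arrays from 163 through a median of 224 to 311. The ranges overlapped only through WT-24 male 2, which had the 244. The mean was 501 ± 152 (SD, n = 8) in the wild-type lines and 232 ± 51.0 (SD, n = 8) in the C96Y lines, a log2 difference of -1.07 ± 0.154 with an adjusted p of 0.000414 in limma, or 2.10-fold lower.

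Cpr51A, the brightest member, fell by a smaller factor. Its intensity was 6495 and 5573 in the non-transgenic males and 5255 and 4838 in the females. The wild-type proinsulin arrays lay between 5416 and 7029 with a median of 5785, and the C96Y arrays between 3911 and 5395 with a median of 4733. The C96Y arrays were all below the wild-type arrays, by a narrow gap, and the non-transgenic females lay within the C96Y range. The C96Y minus wild-type difference was -0.34 ± 0.0522 on the log2 scale, with an adjusted p of 0.00072, or 1.26-fold lower. Without Mut-1 it was -0.22 with an adjusted p of 0.0572. Cpr97Ea and Cpr51A were the only tested members whose C96Y arrays all lay below all wild-type arrays, beside 0.692% of all probe sets tested.

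Cpr66Cb was 270.0 and 358 in the non-transgenic males and 304 and 286 in the females. It ran from 196 through a median of 289 to 328 in the wild-type proinsulin arrays and from 155 through 216 to 257 in the C96Y arrays. The low end of the wild-type range came from the 2 males of WT-24, and the Mut-101 arrays, at 155 to 220.2, lay mostly below those of Mut-1, at 212 to 257. The log2 difference was -0.35 ± 0.0742 with an adjusted p of 0.00529. Without WT-6 it was -0.28 with an adjusted p of 0.083, and without Mut-101 it was -0.21 with an adjusted p of 0.12.

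Cpr64Ac and Cpr92A were the members that rose. Cpr64Ac was 254 and 282 in the non-transgenic males and 244 and 258 in the females. It ran from 209 through a median of 227 to 276 in the wild-type proinsulin arrays and from 254 through 288 to 322 in the C96Y arrays. Within the C96Y arrays, Mut-1 lay at 291 to 322 and Mut-101 at 254 to 285. On the log2 scale the difference was 0.29 ± 0.0531 with an adjusted p of 0.00249, or 1.22-fold higher, and without Mut-1 it was 0.20 with an adjusted p of 0.0982. The number in a sample's description can differ from the replicate number in its title and its meaning is not stated. With that number as a block, Cpr64Ac had an adjusted p of 0.0617 and Cpr66Cb, at -0.29, one of 0.147.

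Cpr92A was 274 and 239.8 in the non-transgenic males and 289 and 292 in the females. It ran from 188 through a median of 277 to 468 in the wild-type proinsulin arrays and from 225 through 381 to 543 in the C96Y arrays, so that the groups overlapped widely. The log2 difference was 0.48 ± 0.0993 with an adjusted p of 0.0046. It rested on the line WT-6, whose 4 arrays lay between 188 and 237. Against WT-24 alone the log2 difference was 0.05 with an adjusted p of 0.828, and with the line as a random block the adjusted p was 0.0893. The call was also lost without Mut-1, where the log2 difference was 0.35 with an adjusted p of 0.0945.

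**Figure D2:**
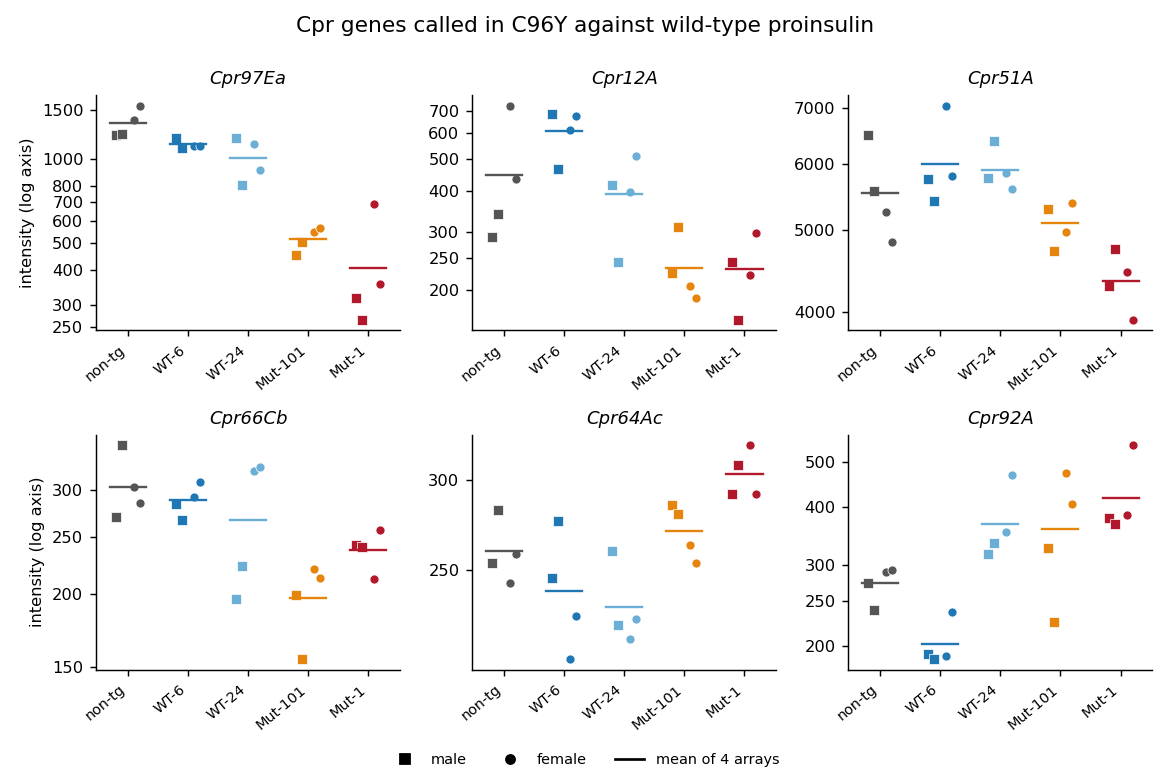
Intensity of the 6 Cpr genes called in C96Y against wild-type proinsulin, by line, on log axes. Each square is a male array and each circle a female array, and the short line is the mean of 4 arrays. Cpr97Ea separates all C96Y arrays from all others, whereas WT-24 reaches the C96Y levels of Cpr92A.

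The other 20 tested members did not pass the threshold. Nearest to it were Cpr56F, with a log2 difference of -0.27 ± 0.0916 and an adjusted p of 0.0572, and Cpr35B, with -0.42 ± 0.145 and an adjusted p of 0.0583. Cpr35B was lower in all 4 pairings of a C96Y line with a wild-type line, and its C96Y arrays ran from 178 to 383 against 363 to 486. Of the other members in the upper 40%, the differences were -0.12 ± 0.226 for Cpr49Ac, 0.12 ± 0.0856 for Cpr66D and 0.09 ± 0.12 for Cpr67B, and none passed the test.

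**Figure D3:**
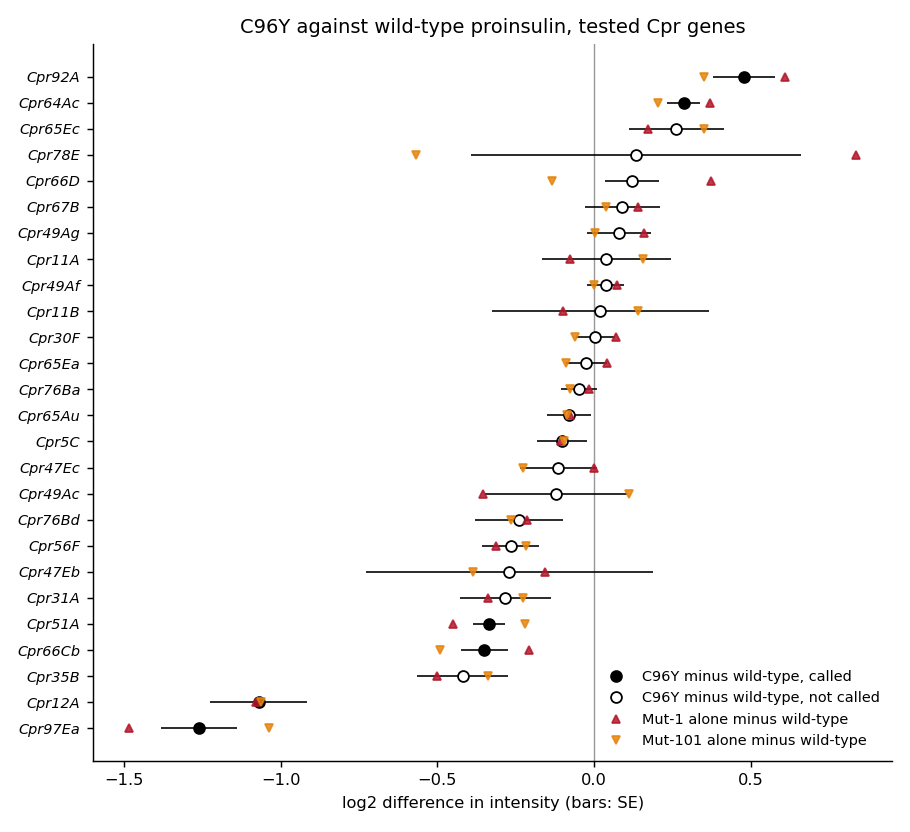
Log2 difference of C96Y against wild-type proinsulin for each of the 26 tested Cpr genes. Circles are the fitted difference with its SE, filled where the adjusted p was under 0.05, and triangles give Mut-1 and Mut-101 alone against the wild-type lines. Cpr97Ea and Cpr12A lie at or below -1.07, and the other called genes lie within 0.48 of 0.

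The 2 C96Y lines were also set against the wild-type lines one at a time. In Mut-1, 6 of 26 members were called, or 23.1% beside 17.9% of all probe sets tested, with 3 lower beside 8.03% and 3 higher beside 9.89%. These were Cpr97Ea at -1.48, Cpr12A at -1.08, Cpr51A at -0.45, Cpr64Ac at 0.37, Cpr92A at 0.61 and Cpr66D at 0.37 on the log2 scale, with limma adjusted p-values from 1.64e-05 to 0.0247. The call of Cpr92A was lost without WT-6, at 0.18 and an adjusted p of 0.462. That of Cpr66D was lost without WT-24, at 0.11 and an adjusted p of 0.637, and in 4 of the 20 fits that left out 1 array, being smallest without Mut-1 female 2 at 0.24 and an adjusted p of 0.157. In Mut-101, 3 were called and all were lower, or 11.5% beside 7.38% in either direction and 2.59% in the lower, namely Cpr97Ea at -1.04, Cpr12A at -1.06 and Cpr66Cb at -0.49. Without WT-6 the calls of Cpr12A and Cpr66Cb were lost, at -0.73 and -0.42 with limma adjusted p-values of 0.0791 and 0.0536. Both were also lost with the description number as a block, with adjusted p-values of 0.0991 and 0.539. In Mut-101, Cpr51A at -0.22, Cpr64Ac at 0.20 and Cpr92A at 0.35 did not pass, with adjusted p-values of 0.054, 0.0773 and 0.101. Both comparisons use the same wild-type arrays, so the lines are not independent of each other here.

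Tested directly, Mut-1 and Mut-101 differed in 1 of the 26 members, Cpr66D, beside 3.49% of all probe sets tested. The lens gene measured 3291 and 3152 in the Mut-1 males and 1973 and 2829 in the females. In Mut-101 it measured 2016 and 2164 in the males and 1903 and 1711 in the females. Only Mut-1 female 1 lay within the range of Mut-101. The log2 difference was 0.51 ± 0.121 with an adjusted p of 0.0351, which was above 0.05 in 9 of the 20 fits that left out 1 array. For Cpr97Ea the same difference was -0.44 with an adjusted p of 0.227, and for Cpr51A it was -0.23 with an adjusted p of 0.132.

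WT-24 and WT-6 carry the same transgene at different insertions, so their difference shows how far lines of one transgene can lie apart. Of the 26 members 1 differed, Cpr92A, beside 0.955% of all probe sets tested. It was 316 and 334 in the WT-24 males and 353 and 468 in the females, against 193, 188, 191 and 237 in WT-6. The log2 difference was 0.85 ± 0.140 with an adjusted p of 0.0069, beside the 0.48 between the transgenes. Without the 4 arrays in which sad was above 1000, 3 of them from these lines, it was 0.65 with an adjusted p of 0.395. Cpr66D at -0.53 and Cpr12A at -0.67 did not pass, with adjusted p-values of 0.0694 and 0.319.

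Cpr97Eb, the chromosomal neighbour of Cpr97Ea on 3R, was below the level limit and was fitted only without the filter. It is described array by array because its values had been seen. Its intensity was 119, 117, 115 and 94.7 in the non-transgenic arrays. It ran from 99.1 through a median of 114 to 132 in the wild-type proinsulin arrays and from 45.8 through 67.5 to 84.8 in the C96Y arrays. All C96Y arrays were below all others, as in 0.246% of all 17105 probe sets. The log2 difference from the wild-type lines was -0.80 ± 0.0859 with an adjusted p of 6.02e-05 over all probe sets. At this level the intensity holds background as well as transcript, so the fold of the transcript is not known.

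No protein-coding gene lies between Cpr97Ea and Cpr97Eb in the RefSeq table. The genes on either side, CG14257 and CG14258, had log2 differences of 0.03 and 0.08 with adjusted p-values of 0.84 and 0.818 over all probe sets. Farther out, spz at 0.13, CG14259 at 0.08 and eater at -0.18 were not called either. Of these genes, CG14257, spz and eater were above the level limit. CG14258 and CG14259, both on the side of Cpr97Eb, were below it, and CG14259 was also below the median of the chemoreceptor genes. Their intensity holds background as well as transcript, so the differences of their transcripts are not known. CG43935, between spz and CG14257, had no probe set of its own.

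**Figure D4:**
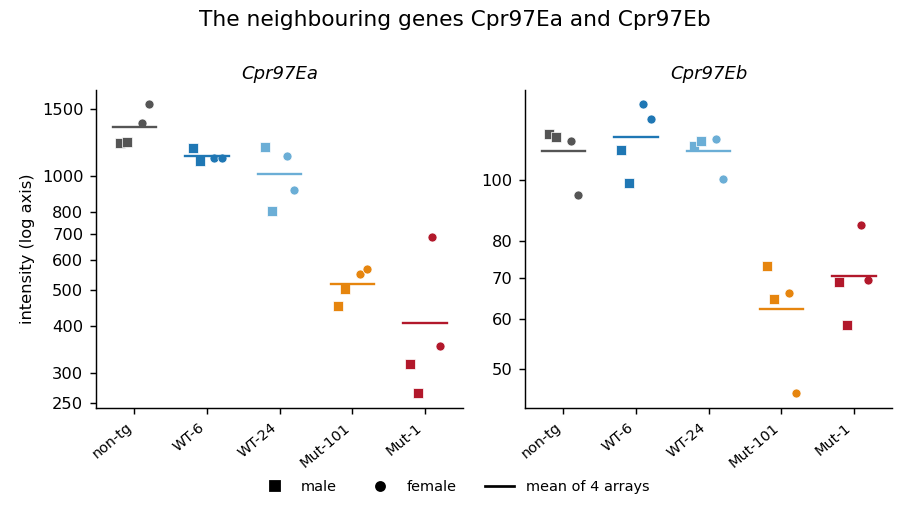
Intensity of the neighbouring genes Cpr97Ea and Cpr97Eb by line on log axes. Each square is a male array and each circle a female array, and the short line is the mean of 4 arrays. The C96Y arrays lie at 266 to 691 for Cpr97Ea and at 45.8 to 84.8 for Cpr97Eb, below all arrays of the other lines in both panels.

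Without the filter on level, 9 of the 66 members were called in C96Y against wild-type proinsulin, 7 lower and 2 higher, or 13.6% beside 11.0% of all probe sets, of which 4.27% were lower and 6.72% higher. Beyond those already named, Cpr72Ea differed by -0.67 ± 0.145 with an adjusted p of 0.0091 and Cpr92F by -0.28 ± 0.0801 with an adjusted p of 0.0403. The C96Y arrays of Cpr72Ea ran from 71.3 to 109.7 and the wild-type arrays from 94.6 to 225. Cpr92F lay between 32.0 and 57.2 in both groups, below the median of the chemoreceptor genes.

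Against the non-transgenic discs, 5 of the 26 members were called in the C96Y lines, 4 lower and 1 higher, or 19.2% beside 11.5% of all probe sets tested, of which 4.75% were lower and 6.80% higher. Cpr97Ea was 3.02-fold lower, with a log2 difference of -1.59 ± 0.148 and an adjusted p of 1.68e-05 in limma. Cpr66Cb was lower by -0.49 ± 0.0909 with an adjusted p of 0.0041, and its C96Y arrays, at 155 to 257, did not overlap the non-transgenic arrays, at 270.0 to 358. In the lower direction 1.81% of all probe sets tested did not overlap between these groups. Cpr12A at -0.89, Cpr92A at 0.47 and Cpr51A at -0.23 had adjusted p-values of 0.00977, 0.026 and 0.0356. Cpr12A did not pass without non-transgenic male 2, which held the fat body transcripts, at -0.83 and an adjusted p of 0.0518. Cpr92A lost the call in 3 and Cpr51A in 7 of the 20 fits that left out 1 array. Under the other alternatives, Cpr92A lost it in 7 of 14, Cpr51A in 8 of 15 and Cpr12A in 2 of 14. Cpr66Cb lost it in 1 of 14, with the description number as a block, and Cpr97Ea in 0 of 15.

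With arrays centred on their medians, 3 members were called in this comparison, all lower, and 75.5% of all called probe sets were higher in C96Y in place of 58.9%. Without the filter, where 6.07% of all probe sets were called, Cpr97Eb differed by -0.76 with an adjusted p of 0.000769 and Cpr76Bb by -0.31 with an adjusted p of 0.0465. This comparison and the preceding ones share the C96Y arrays, so they are given side by side and not as separate support.

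Wild-type proinsulin by itself changed no member past the threshold. Of 26 tested, 0 were called in limma, beside 0.107% of all probe sets tested, and 3 had an unadjusted p under 0.05, which were Cpr67B, Cpr97Ea and Cpr64Ac. Cpr67B measured 637 and 880.1 in the non-transgenic males and 661 and 652 in the females, and from 373 through a median of 553 to 643 in the wild-type proinsulin arrays. These ranges touched only at their ends, and the log2 difference was -0.41 ± 0.147 with an adjusted p of 0.61. For Cpr97Ea all wild-type arrays lay below all non-transgenic arrays, as in 0.136% of all probe sets tested, at -0.33 ± 0.148 and an adjusted p of 0.683.

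Male and female discs differed in 3 of the 26 members, or 11.5% beside 12.3% of all probe sets tested, of which 7.76% were higher and 4.56% lower in males. Cpr49Af and Cpr65Au were higher in males and Cpr92A was higher in females. Cpr49Af was lowest at 226, had a median of 246 and was highest at 267 in the 10 male arrays, and was 169.8, 202 and 225 by the same measures in the 10 female arrays. Each male array was above each female array, as in 0.312% of all probe sets tested, and the male mean was the higher one in 5 of 5 lines. Male minus female, the log2 difference was 0.32 ± 0.0520 with an adjusted p of 0.00172.

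Cpr92A was lowest at 188, had a median of 295 and was highest at 378 in the males, against 191, 368 and 543 in the females, so that the sexes overlapped. Its log2 difference, male minus female, was -0.33 ± 0.0888 with an adjusted p of 0.0302, and females were higher in 5 of 5 lines. Cpr65Au ran from 177 to 259 in males and from 159 to 243 in females, a difference of 0.22 ± 0.0626 with an adjusted p of 0.0376 and higher in males in 4 of 5 lines. Leaving out 1 array at a time, Cpr92A lost this call in 12 of 20 fits and Cpr65Au in 15, whereas Cpr49Af kept it in all 20.

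The direction of sex differences depended on how arrays were scaled. Male arrays had medians of 223 to 286 and female arrays of 213 to 236. Over all probe sets called, 63.0% were higher in males as deposited, 14.0% with arrays centred on their medians and 37.3% after quantile normalization. Cpr49Af was called as higher in males under each of these scalings, and Cpr65Au under the first only. The summed salivary gland markers had a median of 19098 in male and 8845 in female arrays, and the muscle markers one of 2941 and 1058, and their part in these differences was not tested. Without the filter, where 8.90% of all probe sets were called, Cpr65Az at 0.37 and Cpr49Ad at 0.35 were also called as higher in males, with adjusted p-values of 0.00885 and 0.00955.

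No member passed the threshold for a C96Y effect that differed between the sexes, a test with 2 arrays in each group. Of 26 tested, 0 were called in limma, as was no probe set of all those tested, and 2 had an unadjusted p under 0.05. The smallest p was that of Cpr76Bd. It measured 293, 205, 157 and 226 in the wild-type proinsulin males and 131, 158, 129 and 164 in the C96Y males. In females it measured 179, 184, 178 and 242 with wild-type proinsulin and 183, 220.4, 183 and 247 with C96Y. The male ranges nearly separated and the female ranges coincided, yet the log2 difference of the effects was -0.66 ± 0.280 with an adjusted p of 0.999. Within males and within females the log2 differences were -1.50 and -1.02 for Cpr97Ea, -0.89 and -1.26 for Cpr12A, -0.29 and -0.38 for Cpr51A, and 0.22 and 0.35 for Cpr64Ac. Some members that were not called had opposite signs in the sexes. Among them were Cpr78E, at -0.87 and 1.13, and Cpr11B, at -0.49 and 0.53, which varied widely between arrays of one group.

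A few members varied more between arrays of one line and sex than nearly any other probe set. The residual SD on the log2 scale was 1.20 for Cpr78E, 1.05 for Cpr47Eb, 0.793 for Cpr11B and 0.519 for Cpr49Ac, beside a median of 0.102 over all probe sets tested and 0.241 over the 26 members. Above the 95th percentile of all probe sets tested were 5 of the 26, the fifth being Cpr11A at 0.466. For Cpr78E the 95% interval of the log2 difference between C96Y and wild-type proinsulin ran from -1.0 to 1.27, which is wide enough to hold a change as large as that of Cpr12A in the upward direction.

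Cpr78E ranged 15.8-fold, from 75.8 in WT-24 female 1 to 1197 in non-transgenic male 2, and was 448, 399 and 87.9 in the other non-transgenic arrays. Cpr47Eb was 762 and 757 in non-transgenic male 2 and female 2 but 207 and 101 in their group partners, and reached 362 in WT-24 female 2. Cpr11B was 733 in non-transgenic male 2 and 506 in Mut-101 female 2, with 93.1 as its lowest value in Mut-1 male 2. Non-transgenic male 2, the array with the highest fat body sum, was the highest array for each of these 3 genes. WT-24 female 1, with the other high fat body sum, was at 75.8, 106 and 97.0. Whether transcripts of other tissues had a part in this spread was not tested. Cpr49Ac was 1707 in non-transgenic male 1 and 6512 in male 2, and its highest value was 6677 in Mut-101 male 2.

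**Figure D5:**
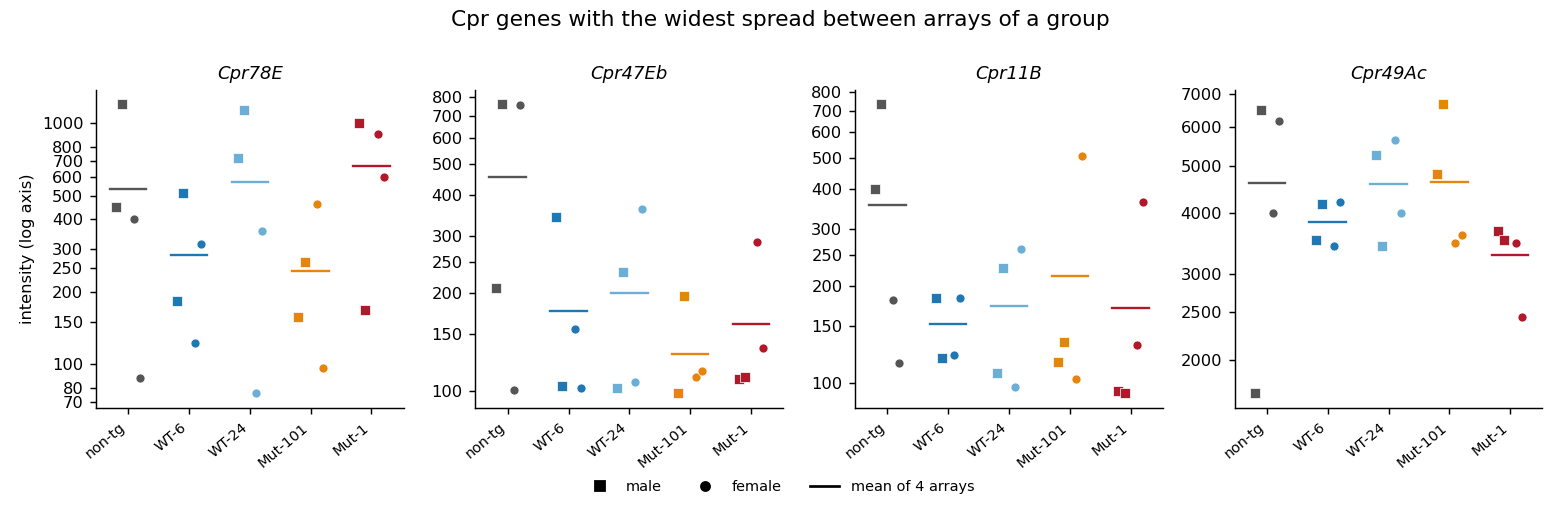
Intensity of Cpr78E, Cpr47Eb, Cpr11B and Cpr49Ac by line on log axes, drawn as in the plot of the called genes. Arrays of one line and sex lie up to several fold apart, and no line separates from the rest.

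Other cuticle and chitin genes were counted in the same comparison of C96Y against wild-type proinsulin, beside the 11.5% higher and 8.58% lower of all probe sets tested. Of 29 other listed genes of cuticle proteins with the same consensus 8 were tested. Edg78E, an ecdysone-dependent cuticle gene, rose by 0.38 with an adjusted p of 0.00233, and Pcp, a pupal cuticle protein gene, fell by 0.57 with an adjusted p of 0.0227. Of the Tweedle genes, another cuticle protein family, 8 of 24 were tested and TwdlE rose by 0.22 with an adjusted p of 0.00555. Of 16 genes of chitin-binding proteins of the obstructor and peritrophin type 6 were tested and 3 fell, namely Gasp at -0.13, obst-B at -0.16 and obst-A at -0.26. Of the 4 Vajk genes 3 were tested and 2 fell, with Vajk4 at -0.64 and an adjusted p of 0.0114. Among 22 tested chitin enzyme genes 3 rose and 4 fell, and among 19 tested ecdysone response genes 2 rose and 1 fell.

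Of 6 tracheal markers 4 were tested and all 4, serp, verm, Gasp and obst-A, fell, beside 8.58% of all probe sets tested. These 4 encode chitin-modifying or chitin-binding proteins, and whether their transcripts came from tracheal cells was not tested. Against the wild-type lines, 4 were lower in Mut-1, beside 8.03%, and 1 in Mut-101, beside 2.59%. Between WT-24 and WT-6 1 was called, beside 0.955% in either direction. For serp, WT-24 at 4555 to 5086 overlapped Mut-101 at 4431 to 4645, and WT-6 was at 5776 to 6173. Gasp and obst-A are the same genes as in the obstructor list above, so the counts of these lists are not separate. The summed level of the 5 tracheal markers with a probe set was 18919 to 20005 in the non-transgenic arrays. It was 18347 to 21663 in the wild-type proinsulin arrays and 15894 to 19647 in the C96Y arrays. The tracheal receptor gene btl, at 113 to 235 with a median of 147, was below the level limit and was not tested. The 2 measured genes of the larval epidermis list, Lcp9 and Pcp, summed to 566 to 897 in the non-transgenic and 581 to 1119.7 in the wild-type proinsulin arrays. In the C96Y arrays the sum was 465 to 1659. Pcp, the pupal cuticle protein gene already counted above, fell, and Lcp9 was not called. Over all arrays the median was 443 for Pcp and 136 for Lcp9. In most arrays the sum was therefore largely Pcp, and it says little about larval epidermis. Of the 10 eye disc markers 5 fell, and of the 6 tested antennal disc markers 2 fell, beside the same 8.58%. The part of tissue composition in the Cpr differences was not tested, and in these bulk samples fewer cells of a type and less RNA per cell cannot be told apart. Leaving out the 2 arrays with high fat body sums or the 4 with high sad ended none of the 6 calls between C96Y and wild-type proinsulin. These fits removed no C96Y array, and of the 2 fat body arrays only WT-24 female 1 belongs to the groups compared. They do not test the part of tissue composition, since transcripts of other tissues stayed in.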

How the data were processed

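The deposited table holds the intensity values of 20 arrays on a linear scale, which the authors computed with MAS5 per the submitters' processing notes. The target scaling and the detection calls are not given in the sources used here. RNA was amplified before labelling, per the labels' protocols. Precision is set by the 2 arrays in each group. Of 18952 probe sets, 183 controls were left out, and 13647 of the rest name 1 gene, 402 several and 4720 none. Intensities were log2-transformed with no pseudocount and fitted in limma 3.58.1 (R 4.3.3), with 1 mean for each line and sex, eBayes with trend and 10 residual degrees of freedom. The upper 60% of probe sets by mean were tested, and p-values are two-sided and adjusted by Benjamini-Hochberg over all 10263. The members, lists and tests were chosen with earlier results of these data known. Every tested member is named with its level. Values by array, or the lowest, median and highest in groups of over 5 arrays, are given for Cpr97Ea, Cpr12A, Cpr51A, Cpr92A, the members called in C96Y against wild-type proinsulin and the member with the smallest p in each other comparison. Arrays with the same replicate number did not deviate together in most pairs of groups. Over 45 pairs the correlations ran from -0.471 to 0.294 with a median of -0.03, and 14 were over 0.1. No pairing by this number was used, and other structure shared between arrays is not excluded by these values. The scripts were tested on simulated data. Alternatives changed the scaling, the filter, an added 50 intensity units, the variance trend, blocks (the replicate number in the titles, the number in the sample descriptions, whose meaning is not stated, or the line), and the lines or arrays included.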

Additional observations from a re-analysis of the deposited data

Results flagged for a closer look

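Among 182 sets of arrays (the 26 tested members in each of 5 lines, and in the 8 wild-type and 8 C96Y arrays), 13 held 1 array far from the others by Dixon's 95% criterion, and chance alone gives about 1 in 20. In the non-transgenic line, Cpr67B was 880.1 in male 2 against 637 to 661, and Cpr76Ba was 215 in female 1 against 247 to 252. In WT-6, Cpr65Ec was 415 in male 1 against 525 to 529.5, and Cpr92A was 237 in female 2 against 188 to 193. In WT-24, Cpr35B was 423 in male 2 against 363 to 369. In Mut-101, Cpr11B was 506 in female 2 against 103 to 135, and Cpr5C was 183 in male 1 against 139.9 to 146. In Mut-1, female 2 stood apart for 3 genes, with 2444 for Cpr49Ac against 3464 to 3674, 178 for Cpr35B against 321 to 338, and 543 for Cpr92A against 367 to 384. In the same line Cpr31A was 229 in male 1 against 263 to 268. Over the pooled arrays of a transgene, Cpr31A was 579.8 in WT-6 male 1 against 255 to 329 in the other wild-type proinsulin arrays, and 341 in Mut-101 female 1 against 229 to 268 in the other C96Y arrays.

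The test between lines of one transgene found a difference for 2 members. Cpr66D was higher in Mut-1 than in Mut-101 by 0.51 ± 0.121 on the log2 scale, with a limma adjusted p of 0.0351. Cpr92A was higher in WT-24 than in WT-6 by 0.85 ± 0.140, with a limma adjusted p of 0.0069.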

How the results depend on the processing

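All counts here are of Cpr genes called. For the 27 gene differences that were recomputed (the called members in each comparison, and the smallest p where none was called), none reversed under the alternatives run: of 891 values 782 kept their side of the threshold and 109 lost the call. Members that were not called, or were fitted only without the filter, were not followed one by one, and quantile normalization raised the count in C96Y against wild-type proinsulin to 7. Cpr97Ea and Cpr12A kept the call in C96Y against wild-type proinsulin under every alternative that tested them, at -1.48 to -1.04 and -1.41 to -0.74. The replicate block by title number gave the reported counts in all 9 comparisons, 6 for C96Y against wild-type proinsulin, and changed no call.

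C96Y against wild-type proinsulin went from 6 to 2 in the upper 40% of probe sets, where 5 members are tested in place of 26, and to 3 without Mut-1. Mut-1 against the wild-type lines went from 6 to 3 in the upper 40%. C96Y against non-transgenic went from 5 to 3 with arrays centred on medians, with the line as a random block, without Mut-1 and without the arrays with fat body transcripts, to 2 in the upper 40% and to 1 with the description number as a block. Mut-101 against the wild-type lines went from 3 to 5 with no filter and to 1 with the description number as a block or without WT-6. Mut-1 against Mut-101 went from 1 to 0 with no filter, with the description number as a block, and without WT-6, WT-24, the fat body arrays or the ring gland arrays. WT-24 against WT-6 went from 1 to 2 with quantile normalization or without Mut-1, and to 0 in the upper 40%, with the description number as a block, or without the ring gland arrays. Males against females went from 3 to 5 with no filter, to 0 in the upper 40%, and to 1 with the description number as a block, or without WT-6, WT-24, Mut-1 or the ring gland arrays. The causes were not tested, except that the filters change which genes are tested. Removal of the fat body or ring gland arrays was chosen after seeing the data.

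Leaving out each of the 20 arrays gave 6 to 7 for C96Y against wild-type proinsulin, 3 to 6 against non-transgenic, 0 to 0 for wild-type proinsulin against non-transgenic, 5 to 7 for Mut-1 and 3 to 4 for Mut-101 against the wild-type lines, 0 to 2 between the C96Y lines, 1 to 2 between the wild-type lines, 1 to 4 between the sexes and 0 to 0 for the sex difference of the C96Y effect. The 3 against non-transgenic came without non-transgenic male 2 or female 2. The 0 between the C96Y lines came without any Mut-101 array, Mut-1 male 1, male 2 or female 2, or WT-24 female 1 or 2, and the 2 without Mut-1 female 1. The 2 between the wild-type lines came without non-transgenic female 1 or 2, or Mut-1 female 1 or 2. The 1 between the sexes came without either WT-24 male, either Mut-1 male, non-transgenic, WT-6 or WT-24 female 2, WT-6 or Mut-101 male 2, or Mut-101 female 1. Genes near background, of which 40 were not tested, limit what these arrays can show.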
